A study of Mus musculus with 7 samples.

Results

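Epithelial cells of the mouse mammary gland with at least 1 UMI (unique molecular identifier, which counts 1 captured RNA molecule) of Mki67 or Top2a are described here. They were chosen from cells that the authors had named myoepithelial, luminal hormone-sensing (HS), luminal alveolar (AV) or luminal HS-AV, and they are set against cells of the same type and mouse with 0 UMIs of both genes. The rule found 260 of 8901 epithelial cells (2.92%), in a series of 13684 cells. They were 133 AV, 80 HS, 42 myoepithelial and 5 HS-AV cells. The glands were the fourth, abdominal glands of nulliparous female mice of mixed strain (FVB, 129, C57BL/6J), all taken at diestrus, with the lymph nodes cut out. Young mice (Young A, B and C) were 3 to 4 months old and aged mice (Aged A, B, C and D) 13 to 14 months old, and the labels name no transgene or treatment. Each mouse gave 1 library, with 6652599 to 16999625 UMIs in the cells kept. Of the cell barcodes, 101 occurred in more than 1 mouse, and 0 of these belonged to an epithelial cell with a UMI of Mki67 or Top2a.

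Mki67 encodes the protein Ki-67, which coats mitotic chromosomes and is present in cycling cells but not in resting ones. Top2a encodes DNA topoisomerase II alpha, which untangles the copied chromosomes before they part. Both genes are very low in quiescent cells, and their RNA rises through S phase to peak in G2 and mitosis. The mammary epithelium has an outer layer of contractile myoepithelial cells around luminal cells. HS cells carry the estrogen and progesterone receptors and relay the hormone signal to their neighbors, while AV cells are the secretory lineage that makes milk. Cell division in the virgin gland varies over the estrous cycle with the ovarian hormones.

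The promoters of both genes are shown because many genes of G2 and mitosis share the same short motifs, the cell cycle homology region bound by the DREAM complex and the CCAAT box bound by NF-Y. Windows are the 250 bases before the gene start of RefSeq on GRCm38.p6, read 5′ to 3′ on the gene's strand. Capitals mark the homology region (TTTGAA), the CCAAT box and the E2F sites TTCCCGC and TTGGCGC, searched on both strands, and none of these motifs contains another. Mki67 lies on the minus strand (chr7:135716380-135716629) and Top2a on the minus strand (chr11:99024190-99024439). Hmgb2 on the plus strand (chr8:57511593-57511842) and Cks2 on the plus strand (chr13:51644982-51645231) are shown because both differed in level between the 2 kinds of cells below.
Mki67: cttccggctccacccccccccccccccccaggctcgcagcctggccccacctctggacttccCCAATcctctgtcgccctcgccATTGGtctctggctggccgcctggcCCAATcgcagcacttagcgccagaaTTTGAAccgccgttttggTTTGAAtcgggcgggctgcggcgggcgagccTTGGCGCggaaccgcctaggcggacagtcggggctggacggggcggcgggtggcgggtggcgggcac
Top2a: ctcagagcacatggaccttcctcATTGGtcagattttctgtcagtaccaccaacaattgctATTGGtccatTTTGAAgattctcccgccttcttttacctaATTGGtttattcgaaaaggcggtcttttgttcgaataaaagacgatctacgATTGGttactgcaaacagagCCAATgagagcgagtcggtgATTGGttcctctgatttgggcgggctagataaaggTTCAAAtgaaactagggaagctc
Hmgb2: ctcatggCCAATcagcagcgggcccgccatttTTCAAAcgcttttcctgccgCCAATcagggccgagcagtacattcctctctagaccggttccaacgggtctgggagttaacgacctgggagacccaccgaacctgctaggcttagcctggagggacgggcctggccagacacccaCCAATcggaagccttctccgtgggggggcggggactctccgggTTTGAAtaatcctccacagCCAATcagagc
Cks2: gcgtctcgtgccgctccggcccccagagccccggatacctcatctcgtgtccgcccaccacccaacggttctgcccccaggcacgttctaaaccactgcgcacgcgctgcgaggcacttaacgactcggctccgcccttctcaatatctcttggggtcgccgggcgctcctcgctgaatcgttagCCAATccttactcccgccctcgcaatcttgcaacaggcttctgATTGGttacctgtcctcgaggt
The homology region was found in 2 places before Mki67, 2 before Top2a, 2 before Hmgb2 and 0 before Cks2, and the CCAAT box in 3, 6, 4 and 2 places. Over all 27025 genes with such a window, 18.3% held the homology region and 37.5% the CCAAT box. Among the G2 and mitosis genes of the Seurat list (52 genes once Mki67 and Top2a are left out), 44 had a window, of which 40.9% held the homology region and 75% the CCAAT box. The E2F sites TTCCCGC and TTGGCGC were rarer, at 4.38% and 2.31% of all windows and at 2.27% and 11.4% of the windows of the G2 and mitosis list. A match is a run of letters and not a bound site.

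Most of the 260 cells had 1 UMI. In these, the other genes of G2 and mitosis stood near their level in cells with 0 UMIs in HS cells. In AV and myoepithelial cells they stood above it. Of these cells, 224 (86.2%) had exactly 1 UMI of both genes together, 20 had 2 and 16 had 3 or more, with a maximum of 6. The members just inside the threshold are therefore the 224 cells with 1 UMI, and those just outside are the 8641 cells with 0. The summed level of the 52 other G2 and mitosis genes was read in each class as CPM (counts per 1000000 UMIs) over all cells of the class. In AV cells this level was 620 CPM at 0 UMIs, 799 at 1, 2167 at 2 and 3980 at 3 or more. In HS cells it was 782 CPM at 0 UMIs, 799 at 1, 678 at 2 and 5594 at 3 or more, the last from 2 cells. In myoepithelial cells it was 754, 1135, 2362 and 8029 CPM. The level was raised at 2 UMIs and again at 3 or more in AV and myoepithelial cells, and at 3 or more alone in HS cells. Those 2 HS cells are of uncertain type, as both held 0 UMIs of the epithelial gene Epcam. The cell of Young C held 0 UMIs of HS markers and that of Young B 9. Without Young A, the level over all epithelial cells with 1 UMI was 1.09 times that of cells with 0, and over all positive cells 1.19 times, against 1.22 and 1.77 times with Young A. The label of a cycling cell is thus not borne out for most members by the level of the other G2 and mitosis genes. The cells are called Mki67/Top2a-positive below, and the cells with 0 UMIs of both negative.

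A small set of cells held many of these genes. A mark of 10 or more of the 52 G2 and mitosis genes in a cell, set after these values were seen and given with no test, was reached by 30 of the 260 positive cells and by 11 of the 8641 negative cells. These 30 cells were 16 AV, 10 myoepithelial, 3 HS and 1 HS-AV cell. Young A held 23 of the 30, with all 10 of the myoepithelial cells and 12 of the 16 AV cells, while the aged mice together held 2 of their 149 positive cells. Young A also held 5 of the 11 negative cells past the mark. The S phase genes of the Seurat list, pooled over mice, made up 0.0562% of UMIs in positive AV cells under the mark and 0.0391% in negative AV cells. In myoepithelial cells they made up 0.0546% and 0.0433%, and in HS cells 0.0231% and 0.0251%, with no test made.

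**Figure D1:**
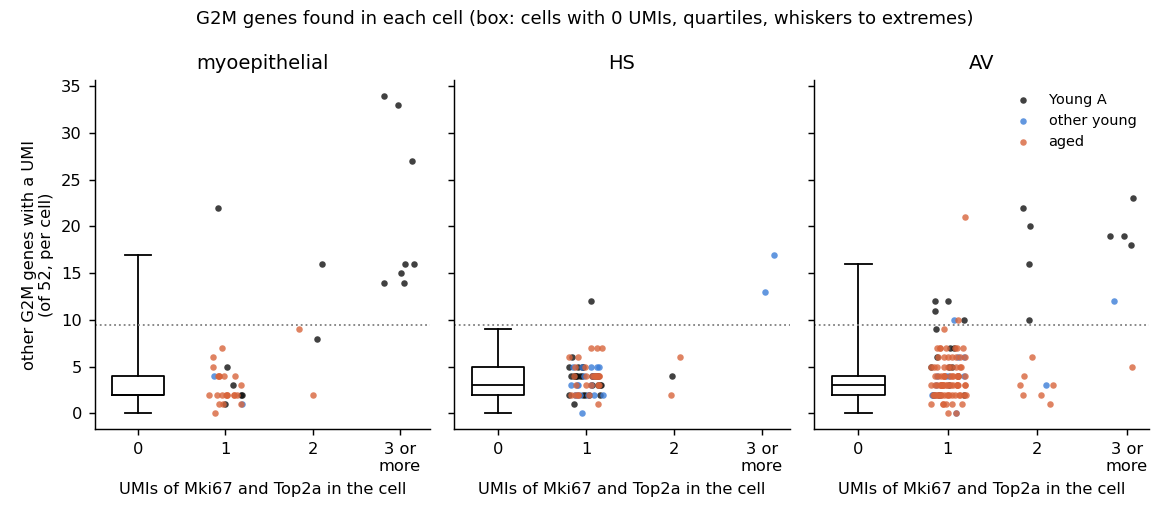
Number of the 52 G2 and mitosis genes with a UMI in a cell (y axis) against its UMIs of Mki67 and Top2a (x axis), in myoepithelial, HS and AV cells. Each point is a positive cell, colored by mouse group, the box gives median and quartiles of negative cells with whiskers to the extremes, and the dotted line lies just under 10 genes. Most cells with 1 UMI lie in the range of the negative cells, and the 8 myoepithelial cells with 3 or more UMIs, all of Young A, have 14 to 34 of the genes.

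Genes that the mark did not use are given next for these 30 cells, the other 230 and the negative cells, as a description. These shares pool mice. Young A gave 23 of the 30 cells and 46 of the 230 but 840 of the 8641 negative cells. The shares within Young A and over the other mice therefore follow. Stmn1, which encodes the microtubule destabilizer stathmin, had a UMI in 96.7% of the 30 cells, 19.6% of the 230 and 10.2% of the negative cells. Spc24, a subunit of the NDC80 complex of the kinetochore, was found in 63.3%, 5.22% and 1.62%. Lig1, the DNA ligase that joins fragments of the newly copied strand, was found in 66.7%, 14.3% and 7.44%. Hist1h2ap, a histone H2A gene transcribed with DNA replication, was found in 60%, 1.74% and 1.27%. Among enzymes of nucleotide supply, thymidine kinase Tk1 was in 50%, 2.61% and 0.83%, and thymidylate synthase Tyms in 50%, 6.96% and 4.76%. Within Young A, Stmn1 was in 100% of 23 cells past the mark, 28.3% of 46 other positive cells and 21.3% of 840 negative cells, Spc24 in 65.2%, 2.17% and 5.12%, and Lig1 in 73.9%, 15.2% and 10.1%. Hist1h2ap was in 65.2%, 4.35% and 2.14% of them, Tk1 in 47.8%, 4.35% and 2.62%, and Tyms in 52.2%, 6.52% and 8.69%. In the other mice the 3 classes held 7, 184 and 7801 cells. Stmn1 was in 85.7%, 17.4% and 8.96% of them, Spc24 in 57.1%, 5.98% and 1.24%, and Lig1 in 42.9%, 14.1% and 7.15%. Hist1h2ap was in 42.9%, 1.09% and 1.18% there, Tk1 in 57.1%, 2.17% and 0.641%, and Tyms in 42.9%, 7.07% and 4.33%. The immediate early gene Jun was in 93.3%, 97.4% and 94.8% over all mice.

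**Figure D2:**
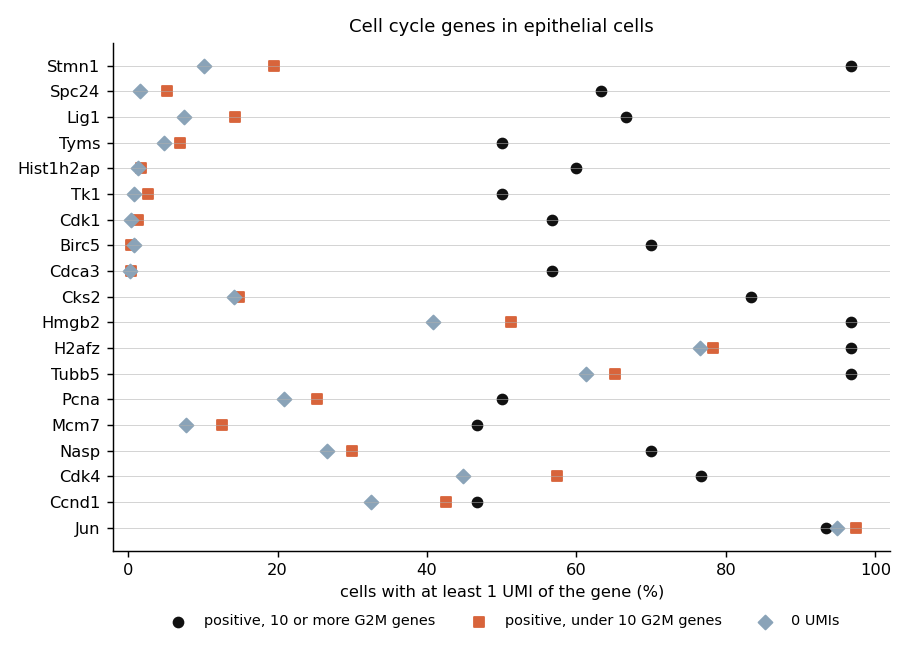
Percentage of cells holding a UMI of each gene (x axis) among the 30 positive epithelial cells past the mark (black circles), the 230 other positive cells (orange squares) and all negative cells (blue diamonds). Stmn1 is in 96.7%, 19.6% and 10.2% of them, and Jun in over 90% of all 3 classes.

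The mark itself used G2 and mitosis genes, whose shares are given as a description. Birc5, the survivin subunit of the chromosomal passenger complex, was in 70% of the 30 cells, 0.43% of the 230 and 0.78% of negative cells. The mitotic kinase gene Cdk1 was in 56.7%, 1.30% and 0.41%, and Cdca3, which promotes entry into mitosis, in 56.7%, 0.43% and 0.24%. Hmgb2, a chromatin protein, was in 96.7%, 51.3% and 40.8%, so it was common in the other positive cells and in negative cells too.

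Most of the 30 cells kept the markers of their lineage in the myoepithelial and AV types, judged against the other epithelial lineages alone. In 10 of 10 myoepithelial cells the myoepithelial markers outnumbered those of each other lineage, with a median of 100.5 UMIs per cell. In AV cells the alveolar markers did so in 14 of 16, with a median of 119 UMIs and a lowest of 0. In HS cells the HS markers did so in 1 of 3. The milk and mature alveolar genes made up 0.158% of the UMIs of the 16 AV cells, 0.935% of the other positive AV cells and 1.07% of the negative AV cells. Immune markers made up 0.0478% of the UMIs of the 16 AV cells against 0.00302% and 0.00384%. Of these 16 cells 12 came from Young A, where the milk and mature alveolar genes made up 0.0936% of UMIs in the 12 cells, 0.261% in the other 12 positive AV cells and 0.232% in 264 negative AV cells. Immune markers in the same cells of Young A made up 0.0665%, 0.0117% and 0.0124%. Defining immune genes (Ptprc, Cd3d, Cd3e, Cd3g, Gzma or Flt3) had a UMI in 3 of the 30 cells, and 2 of these, both AV, had more than 1. The immune markers also include Cd74 and Lyz2, and some cells were high in the full list alone. The AV cell of Young A with 23 G2 and mitosis genes held 26 UMIs of immune and 3 of alveolar markers. Another AV cell of Young A held 13 of immune markers, and both had 0 of the defining genes. The HS-AV cell held 27 of immune markers, with 1 of a defining gene. The part of these immune transcripts in the levels below was not tested.

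Markers of other cell types were also counted over all members. Of the 42 positive myoepithelial cells, 0 had a UMI of Ptprc, Lyz2, Cd3d, Cd3e or Cd3g, and 10 had one of Cd74, an antigen presentation gene also seen in 252 of 1628 negative cells. Among the 80 positive HS cells Ptprc and the Cd3 genes were at 0 as well. Among the 133 positive AV cells Ptprc was in 2, Cd3d in 2, Cd3g in 2 and Cd3e in 1. The 8 immune markers summed, per mouse, to 0 to 385 CPM in positive AV cells and 13.2 to 165 CPM in negative AV cells. The 5 fibroblast markers summed to 4.92 to 503 CPM in positive and 9.26 to 417 CPM in negative AV cells, and the 6 endothelial and pericyte markers to 16.6 to 133 and 19.5 to 122 CPM. In HS cells the fibroblast markers reached 2774 CPM in positive and 1746 CPM in negative cells of the mouse with most, and the fibroblast gene Dcn was in 32 of 80 positive and 645 of 2058 negative cells. In myoepithelial cells the alveolar markers summed to 1074 to 3904 CPM in positive and 1014 to 1709 CPM in negative cells. The markers of the cell's own type had ranges that overlapped with negative cells. These ranges cover unlike sets of mice. Positive cells were read in 4 mice for myoepithelial and 6 for AV or HS cells, and negative cells in 7. Myoepithelial markers summed to 7297 to 16561 CPM (median 12356) in positive and 11550 to 22989 CPM (median 14370) in negative myoepithelial cells. Fits within the same mice are given further below. Alveolar markers summed to 19601 to 27800 CPM in positive and 15562 to 26324 CPM in negative AV cells, and the ranges overlapped in every type. HS markers summed to 1115 to 2723 CPM in positive and 1301 to 2685 CPM in negative HS cells.

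Which of the 2 genes chose a cell is given for each lineage as a description. Mki67 alone was found in 138 cells, Top2a alone in 107 and both in 15. HS cells were mostly Mki67 cells, with 67 of 80 holding Mki67 alone, 12 Top2a alone and 1 both. AV cells leaned to Top2a, with 81 of 133 holding Top2a alone, 46 Mki67 alone and 6 both. Myoepithelial cells had 21, 13 and 8. Young A showed the contrast by itself, with 26 Mki67-only and 3 Top2a-only HS cells beside 1 Mki67-only and 20 Top2a-only AV cells. Mki67-only cells outnumbered Top2a-only cells in HS cells of 6 of 7 mice, the exception being Aged C with 1 positive HS cell. In AV cells Top2a-only cells were the more frequent in 5 of 7 mice, with the reverse in Aged B (14 Mki67-only, 10 Top2a-only) and a tie in Aged C (12 and 12). As shares of cells thinned to 2000 UMIs each, Top2a was higher in AV than in HS cells in 7 of 7 mice (0.960% against 0.264%). Mki67 was lower in AV than in HS cells in 6 of 7 mice (0.327% against 1.03%). These UMIs chose the cells, so no test is given.

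The gene found also went with the level of the other G2 and mitosis genes. Summed over epithelial cells, the 52 G2 and mitosis genes stood at 807 CPM in Mki67-only cells, 1219 CPM in Top2a-only cells, 5075 CPM in cells with both and 683 CPM in cells with neither. The mark of 10 genes was reached by 1 of 138 Mki67-only, 17 of 107 Top2a-only and 12 of 15 cells with both. The phase that the authors deposited was G1 for 47.8% of Mki67-only, 21.5% of Top2a-only, 0% of cells with both and 49.1% of cells with neither. Those phase calls come from the S and G2M scores, whose published gene lists include both genes, so they are no independent check.

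**Figure D3:**
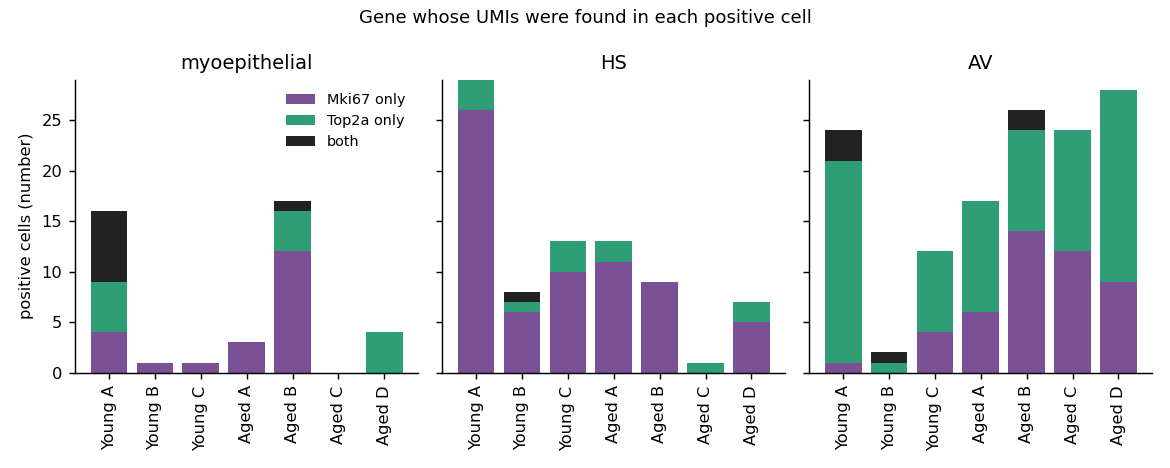
Number of positive cells per mouse (bars) in which Mki67 alone, Top2a alone or both were found, in each of 3 epithelial types. Mki67-only cells fill most of the HS bars (67 of 80 cells) and Top2a-only cells most of the AV bars (81 of 133 cells).

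The share of positive cells varied more between mice than between types. Of all epithelial cells it was 7.59% in Young A (69 of 909), against 11 of 559 in Young B and 31 of 1435 in Young C. In aged mice it was 33 of 1290 in Aged A, 52 of 2334 in Aged B, 25 of 1127 in Aged C and 39 of 1247 in Aged D. Since a deeper cell has more chances to show 1 UMI, the share was also computed with each cell thinned to 2000 UMIs, and the comparisons between ages and between types use these thinned shares. In myoepithelial cells they were 5.20%, 0.751% and 0.890% in Young A, B and C, and 0.618%, 1.22%, 0% and 0.452% in Aged A, B, C and D. In AV cells they were 3.72%, 1.11% and 0.956% in young and 0.558%, 0.551%, 0.750% and 0.932% in aged mice. In HS cells they were 2.10%, 1.08% and 0.575% in young and 2.19%, 0.848%, 0.260% and 1.93% in aged mice. The AV shares of young mice lay above all those of aged mice, though Young C exceeded Aged D by little, while the HS shares of the age groups overlapped. The 0 of Aged C myoepithelial cells comes from 125 cells, which allows a share of up to 2.4% before thinning (a count of 0 allows 3, counting error only).

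**Figure D4:**
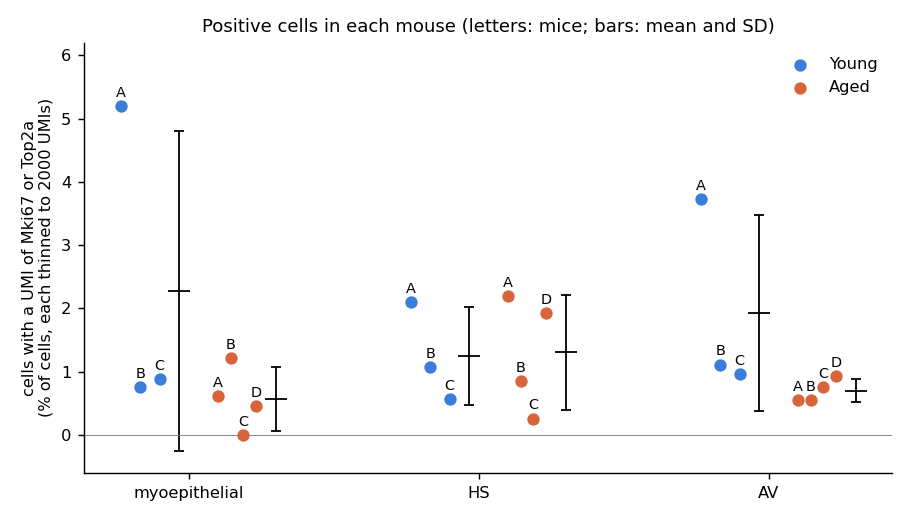
Thinned share (%) of positive cells in each mouse (points with the mouse's letter), by type and age group, with bars for the mean and SD over mice. Young A is highest in myoepithelial cells (5.20%) and AV cells (3.72%), and the HS shares of young and aged mice overlap.

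With age, the mean thinned share went from 1.93% ± 1.55 (SD, n = 3) in AV cells of young mice to 0.698% ± 0.181 (SD, n = 4) in those of aged mice. The exact permutation test over mice gave p = 0.0286 (two-sided), the smallest that 35 divisions of 7 mice allow, and p = 0.0857 adjusted over 3 types, so the call did not hold. Without thinning, AV cells gave a difference of -1.95 percentage points with p = 0.343 in the exact permutation test, so the raw counts did not separate the ages. Without Young A, the thinned difference was -0.337 percentage points in AV cells and -0.248 in myoepithelial cells. In myoepithelial cells the mean was 2.28% ± 2.53 (SD, n = 3) at the young age and 0.573% ± 0.505 (SD, n = 4) at the older one (exact permutation test, p = 0.143, adjusted p = 0.214). In HS cells it was 1.25% ± 0.775 (SD, n = 3) and 1.31% ± 0.907 (SD, n = 4), with p = 0.943 in the same exact test. The deposited table writes the barcodes of young and aged libraries in different formats, and age and any difference in handling of these sets cannot be told apart. Between types the differences were smaller than their spread over mice. AV minus HS cells was -0.0564 ± 1.06 percentage points (SD, n = 7, exact sign-flip permutation test, p = 0.922). Myoepithelial minus HS cells was 0.0219 ± 1.56 (SD, n = 7, exact p = 0.938) and AV minus myoepithelial cells was -0.0783 ± 0.765 (SD, n = 7, exact p = 0.859).

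Other cells of the same glands put these shares in scale. No type in the series can be taken to lack dividing cells, but fibroblasts came lowest among the larger types, with 10 of 1993 cells positive (0.502%, or 0.226% thinned), at a median of 4414 UMIs per cell. The thinned shares over all cells were 1.30% in myoepithelial, 1.14% in HS and 0.889% in AV cells, at medians of 4431, 7277 and 6632 UMIs. In immune cells the thinned shares were 18.7% in T and B cells (17 of 60 unthinned), 20.0% in NK cells (12 of 40) and 9.55% in dendritic cells (39 of 226). Of the positive immune cells, 24 of 39 dendritic cells and 14 of 17 T and B cells had 10 or more G2 and mitosis genes, against 30 of 260 epithelial cells, with no test made. Vascular endothelial cells had a thinned share of 1.11% (44 of 1819 unthinned), and 10 of the 44 passed the mark.

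Positive cells were deeper than negative ones, with medians of 7300 and 6242 UMIs. The authors kept cells of up to 2499 genes, and 11.2% of positive cells had over 2400 genes, against 5.40% of negative cells. The myoepithelial cell with most G2 and mitosis genes (34) had 2499 genes. Positive cells were also chosen on a random 2000 of their UMIs, and the median of their total UMIs was compared. It was 0.972 times that of negative cells in AV (n = 5 mice, exact sign-flip permutation test, p = 0.75). The ratio was 0.799 in HS (n = 5, exact p = 0.25) and 1.10 in myoepithelial cells (n = 2, where exact p cannot go below 0.5). Chosen on all UMIs, AV cells gave 1.15 times, higher in 6 of 6 mice. That choice itself favors deeper cells, so the value is given as a description without a test.

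Genes were next compared between positive and negative cells, summed per mouse and type, in the mice with at least 3 positive cells. A gene was called at an adjusted p under 0.05 and a fold of at least 1.5, in edgeR with the mouse as a block, and Mki67 and Top2a were left out. In AV cells (6 mice, without Young B) 6 of 5803 genes were called higher (0.103%) and 10 lower (0.172%). Those called higher included a replication ligase, a kinetochore subunit, a chromatin protein and stathmin. Lig1 was at 16.6 to 199 CPM (median 38.1) in positive and 10.8 to 37.3 CPM (median 13.7) in negative cells, higher in 6 of 6 mice. Its log2 fold change was 1.59 ± 0.28 (SE, adjusted p = 0.00316). Stmn1 was at 9.69 to 829 CPM (median 71.9) in positive and 9.82 to 151 CPM (median 22.8) in negative cells, higher in 5 of 6 mice, with Aged C about equal. Its log2 fold change was 1.90 ± 0.23 (SE, adjusted p = 0.00011).

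Hmgb2 was at 92.1 to 617 CPM (median 136) in positive and 80.6 to 152 CPM (median 89.5) in negative AV cells, higher in 6 of 6 mice by 0.92 ± 0.19 on the log2 scale (adjusted p = 0.0224). Spc24 was at 0 to 106 CPM (median 13.6) against 1.01 to 15.8 CPM (median 1.77), higher in 5 of 6 mice, with a log2 fold change of 2.57. Its levels are given as a description, since it was too low to be tested without Young A. In each of these genes Young A was the highest mouse in both kinds of cells. Without Young A, Stmn1 stayed called (log2 fold change 1.53, adjusted p = 0.0053), Lig1 (1.21, adjusted p = 0.174) and Hmgb2 (0.57, adjusted p = 0.213) did not. With cells of exactly 1 UMI, a choice made after the values were seen, Stmn1 was still higher by 1.33 (adjusted p = 0.00104).

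Of the other genes called higher in AV cells, Hk2, the hexokinase that commits glucose to glycolysis, was at 59.0 to 356 CPM in positive and 26.7 to 88.5 CPM in negative cells, higher in 6 of 6 mice (log2 fold change 0.96, adjusted p = 0.0489). The log2 fold change was -0.02 when cells were chosen at 2 or more UMIs and -0.05 when chosen on 2000 UMIs. Mrpl34, a protein of the mitochondrial ribosome, rose in 6 of 6 mice by 1.01 (adjusted p = 0.0315). Wfdc18, a secreted protein of the whey acidic protein family, was at 3215 to 14648 CPM in positive and 1828 to 10954 CPM in negative AV cells. It was higher in 6 of 6 mice, with an adjusted p of 0.0025 but a fold of 1.44, under the threshold of size.

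**Figure D5:**
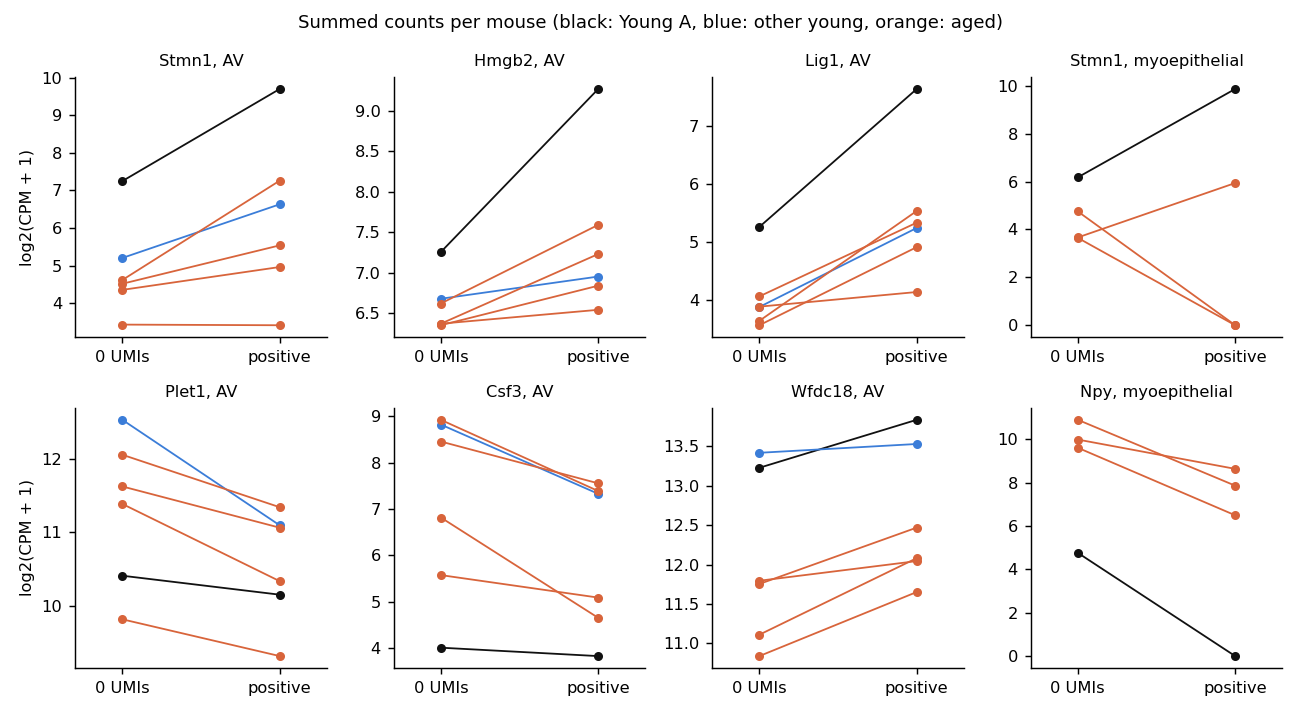
Level as log2(CPM + 1) in negative (0 UMIs) and positive cells of each mouse, joined by a line, for 6 genes of AV cells and 2 of myoepithelial cells, with Young A in black. Stmn1 in AV cells goes up in 5 of 6 mice and Plet1 goes down in 6 of 6, while Stmn1 in myoepithelial cells goes up in 2 of 4 and Npy goes down in 4 of 4.

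The 10 genes called lower in positive AV cells included a surface protein, a cytokine and caseins. Plet1, a surface protein of progenitor and luminal epithelium, was at 634 to 2595 CPM (median 1712) in positive and 898 to 5934 CPM (median 2918) in negative cells, lower in 6 of 6 mice by 1.75-fold (log2 fold change -0.81 ± 0.10, adjusted p = 0.000158). Csf3, the granulocyte colony-stimulating factor, was at 13.3 to 187 CPM against 15.2 to 484 CPM, lower in 6 of 6 mice (log2 fold change -1.29, adjusted p = 0.000495). Ifit1, an interferon-induced gene, was at 0 to 67.9 against 7.58 to 201 CPM (-1.75, adjusted p = 0.00286). The phosphatase Dusp5, which turns off ERK in the nucleus, the NF-kappaB subunit Rela, the membrane proteins Emp1 and Tm4sf1 and the regulator Ifrd1 also fell in 6 of 6 mice, with log2 fold changes between -0.96 and -0.61. The remaining 2 were the caseins Csn1s2a (-1.25, adjusted p = 0.000712, lower in 5 of 6 mice) and Csn2 (-0.94, adjusted p = 0.0122, lower in 4 of 6 mice and higher in none).

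The milk and mature alveolar genes were also counted as a list. Of its 11 genes, 7 passed the filter on low counts, 2 were called lower and 0 higher, and all 7 had a log2 fold change below 0, with a median of -0.35 against -0.02 over all 5803 genes. The summed level of the list was 1790 to 20198 CPM (median 6936, 6 mice) in positive and 2323 to 17889 CPM (median 4921, 7 mice) in negative cells. The ranges overlapped. Young B enters the negative side alone, so the 2 medians cover unlike sets of mice and give no direction. List members not called included Lalba, the alpha-lactalbumin of milk sugar synthesis (-0.64, adjusted p = 0.294), Lcn2, an iron-binding lipocalin (-0.29, adjusted p = 0.157), and Spp1, osteopontin (-0.35, adjusted p = 0.856). The alveolar markers had 9 of 9 genes tested with none called, 1 above 0 (Wfdc18), and a median of -0.24, with Csn3, a casein that is also made in the virgin gland, at -0.30 (adjusted p = 0.16). When each positive cell was set against the 1 negative cell of its mouse nearest in UMIs, 1682 genes could be tested in AV cells and 0 were called, with Csn2 at -0.16, Csn1s2a at -0.30, Plet1 at -0.61 and Hmgb2 at 0.98. Leaving out Young A moved the count of lower genes from 10 to 20, and leaving out Aged B moved that of higher genes from 6 to 2.

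The cell cycle lists were mostly below the filter in AV cells, so they describe only the abundant members. Of 52 G2 and mitosis genes 12 were tested, 1 called (Hmgb2) and the median log2 fold change was 0.30. Of 43 S phase genes 11 were tested, 0 called, and the median was 0.48, with Mcm7 at 1.04 (adjusted p = 0.17) and Tipin at 1.11 (adjusted p = 0.336). The replication licensing and helicase list had 4 of 15 tested (median 0.74, none called), the replication fork list 8 of 20 (median 0.51, with Lig1 called) and histones and chromatin proteins 9 of 17 (median 0.45). The kinetochore list had 3 of 18 tested, with Spc24 called through Young A, and the 22 mitotic kinases and spindle motors had 0 tested in every type. The immediate early genes, which respond to tissue dissociation, had 18 of 19 tested, none called, and a median of -0.09, with Fos at 0.07 and Jun at -0.01.

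In myoepithelial cells (4 mice: Young A and Aged A, B and D) 4 of 4062 genes were called higher (0.0985%) and 5 lower (0.123%). The 4 higher genes were of the cell cycle and rested on Young A. Stmn1 was at 934 CPM in positive and 71.3 in negative cells of Young A, 0 and 26.0 in Aged A, 60.4 and 11.7 in Aged B, and 0 and 11.6 in Aged D, given as a description since it was too low to be tested without Young A. Cks2, which binds cyclin-dependent kinases, was at 349 and 31.5 CPM in Young A, 0 and 24.1 in Aged A, 24.2 and 21.6 in Aged B, and 46.5 and 26.0 in Aged D (log2 fold change 2.11 ± 0.45, adjusted p = 0.00297). In the aged mice, positive cells held more Stmn1 than negative cells in Aged B, and more Cks2 in Aged B and D. No UMI of Stmn1 was found in positive cells of Aged A and D, and none of Cks2 in Aged A. Aged A had 3 positive cells and Aged D 4, against 17 in Aged B. A level of 0 from so few cells cannot be told from the low levels of negative cells.

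The condensin subunit Smc4 (2.23, adjusted p = 0.00218) and Hmgb2 (1.59, adjusted p = 0.00811) were higher in 2 of 4 mice each. Without Young A no gene was called higher, with Cks2 at -0.01 and Hmgb2 at 0.23 on the log2 scale. Of 52 G2 and mitosis genes 11 were tested and 3 called higher, with a median of 0.98 against -0.18 over all 4062 genes. Of 43 S phase genes 5 were tested, 0 called, with a median of 0.47. The condensin and cohesin list had 4 of 11 tested (median 0.51).

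Of the 5 genes that fell in positive myoepithelial cells, 4 did so in every mouse. Npy, which encodes neuropeptide Y, was at 0 and 26.2 CPM in positive and negative cells of Young A, 89.5 and 784 in Aged A, 399 and 1020 in Aged B, and 232 and 1920 in Aged D. It fell by 2.42 ± 0.40 on the log2 scale (adjusted p = 2.52e-06), and without Young A by 2.34 (adjusted p = 1.85e-05). Tm4sf1, a membrane protein of the tetraspanin superfamily, was at 368 and 674 CPM in Young A, 895 and 1919 in Aged A, 1172 and 2175 in Aged B, and 790 and 2214 in Aged D (-1.36 ± 0.29, adjusted p = 0.00297). Positive cells were the lower in each of these mice, and the levels of Npy in Young A were under those of all aged mice in both kinds of cells.

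Tm4sf1 was called lower in both myoepithelial and AV cells. Aqp3, a channel for water and glycerol, fell by 1.52 (adjusted p = 0.0386) and Wfdc18 by 2.21 (adjusted p = 0.00798), both in 4 of 4 mice. Slpi, a secreted protease inhibitor that is named here after its values were seen, was called lower (-1.18, adjusted p = 0.0142) but in 2 of 4 mice, with 537 against 17538 CPM in Aged A. Leaving out Aged D left 0 of the 5 called, and leaving out Aged B gave 8. Against negative cells matched in UMIs, 596 genes could be tested and 0 were called, with Npy at -0.98 and Tm4sf1 at -1.36. The 8 myoepithelial markers had a median of -0.58, with 1 above 0 and none called. The immediate early list had 18 of 19 tested, none called and a median of -0.18, equal to that of all genes.

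In HS cells (6 mice, without Aged C) 0 of 4198 genes were called higher (0%) and 3 lower (0.0715%). At an unadjusted p under 0.05 there were 200 genes in either direction, and DESeq2 called 1 higher and 0 lower. None of the genes called was of the cell cycle. Ctsr, a cathepsin gene, was at 0 to 294 CPM (median 14.0) in positive and 1.99 to 1184 CPM (median 49.6) in negative cells (-1.66, adjusted p = 0.00261). Pcp4, a calmodulin regulator, was at 0 to 39.2 CPM (median 0) against 20.2 to 318 CPM (-2.93, adjusted p = 0.00261). Hba-a1, an alpha globin of red blood cells, was at 0 to 37.5 against 6.62 to 434 CPM (-2.22, adjusted p = 0.018). Each was lower in 6 of 6 mice, with positive cells at 0 in at least 1 mouse. Leaving out Aged A left 1 of the 3 called, leaving out Aged D gave 5, and matching in UMIs left 0 of 1036 genes called.

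Of the cell cycle lists in HS cells, 8 of 52 G2 and mitosis genes were tested with none called and a median of 0.04, against -0.01 over all genes. Hmgb2 was at 73.4 to 219 CPM in positive and 79.9 to 177 CPM in negative cells (0.28, adjusted p = 0.825), and Tubb5 was at -0.41 (adjusted p = 0.998). Of 43 S phase genes 3 were tested with a median of -0.24, and Pcna, the sliding clamp of DNA replication, was at -0.24 (adjusted p = 0.998). Klf4, an immediate early transcription factor, was higher in 6 of 6 mice (398 to 1206 CPM against 295 to 653 CPM, log2 fold change 0.62), with an adjusted p of 0.0551. No gene was called in the same direction in all 3 types.

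Of the 8 genes called higher in AV or myoepithelial cells, 5 had a promoter window (Cks2, Hk2, Hmgb2, Lig1 and Mrpl34). The homology region was in 1 of these (Hmgb2) and the CCAAT box in 3 (Cks2, Hk2 and Hmgb2). Among the 4487 genes with a window that were tested in AV cells, 11.9% held the homology region and 39.9% the CCAAT box.

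The difference between positive and negative cells was compared between types in 1 fit. Between AV and myoepithelial cells 3 of 6111 genes differed with AV higher (0.0491%) and 0 with AV lower (0%), with 561 at an unadjusted p under 0.05 and 1 and 0 by DESeq2. Wfdc18 gave the widest gap (2.93, adjusted p = 6.86e-06), as it was higher in positive AV cells of 6 mice and lower in positive myoepithelial cells of 4. Hspb1, a small heat shock protein, differed by 1.31 (adjusted p = 0.0192), and Ccl2, a monocyte chemokine, by 2.51, where Young C alone held 1056 CPM in positive AV cells and the value without it was -0.31. Between AV and HS cells 0 of 5394 genes differed with AV higher (0%) and 1 with AV lower (0.0185%), which was Emp1. At an unadjusted p under 0.05 there were 378, and DESeq2 called 0 in both directions.

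Within positive cells, young and aged mice were compared without a mouse block, in AV cells of 2 young and 4 aged mice and HS cells of 3 and 3. In AV cells 14 of 2136 genes were called higher in aged (0.655%) and 7 lower (0.328%), and in HS cells 3 of 1089 higher (0.275%) and 0 lower (0%). DESeq2 gave 34 and 8 in AV cells and 10 and 3 in HS cells, and 380 AV genes and 169 HS genes had an unadjusted p under 0.05. None of the cell cycle genes was among them. Leaving out Aged C left 1 gene higher and 0 lower in AV cells, leaving out Aged B gave 28 higher, and leaving out Aged A gave 29 higher in HS cells. In myoepithelial cells only 1 young mouse had 3 positive cells, and no fit was made.

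The genes with the largest change with age were also read in negative cells of the same mice. For the genes here and in the next paragraph, age and any difference in handling of the young and aged libraries cannot be told apart. Gm10260, a ribosomal protein retrogene that shares sequence with its parent, had 0 UMIs in positive AV cells of both young mice and 2050 to 3857 CPM in aged mice, at least 249-fold higher (against 3 UMIs over the young group). In HS cells it was at 9.82 to 18.3 CPM in young and 2492 to 3508 CPM in aged mice. In negative AV cells it was at 8.1 to 13.9 CPM in young and 2335 to 3921 CPM in aged mice, so the gap was seen in negative cells too. The fatty acid oxidation switch Pdk4 (at least 14.2-fold), the lipoxygenase Alox12e (at least 8.70-fold) and C530043A13Rik (at least 6.62-fold) were also at 0 in young positive AV cells, and H2-T23, a class I antigen gene, was at 0 and 12.3 CPM in young against 145 to 257 CPM in aged mice. Negative AV cells showed these gaps as well, with Pdk4 at 8.98 to 16.7 CPM in young and 127 to 281 CPM in aged mice, Alox12e at 0.428 to 5.56 and 77.3 to 151 CPM, C530043A13Rik at 7.58 to 22.2 and 43.5 to 172 CPM, and H2-T23 at 15.2 to 48.2 and 118 to 178 CPM.

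Of genes lower in aged positive AV cells, BC018473, an antisense gene whose reads cannot be told from those of its partner unless counting used the strand, was at 186 and 454 CPM in young and 0 in aged mice, at least 73.1-fold lower. Lgals7 (219 and 319 CPM against 0 to 54.1), Lgals1 (133 and 98.2 against 4.14 to 14.8), Gpx3 (219 and 295 against 0 to 45.6) and Sparc (153 and 98.2 against 4.14 to 22.7) followed, which encode galectins, an extracellular glutathione peroxidase and a matrix protein. In negative AV cells BC018473 was at 344 to 1484 CPM in young and 0 in aged mice, Lgals7 at 180 to 237 and 8.14 to 25.5 CPM, Lgals1 at 50.02 to 173 and 11.6 to 14.5 CPM, Gpx3 at 135 to 280.0 and 7.58 to 67.0 CPM, and Sparc at 58.6 to 138 and 6.92 to 10.4 CPM. In HS cells the urea cycle enzyme Arg1 was at 25.0 to 36.6 CPM in young and 161 to 285 CPM in aged mice (log2 fold change 2.94, adjusted p = 0.0212), and the processed pseudogene Rps18-ps3, which shares reads with Rps18, rose by 2.70 (adjusted p = 0.0455). In negative HS cells Arg1 was at 8.45 to 54.1 CPM in young and 178 to 290 CPM in aged mice, and Rps18-ps3 at 75.2 to 94.1 and 313 to 756 CPM.

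Whether the difference between positive and negative cells itself changed with age was tested in the same mice. In AV cells 0 of 7956 genes were called in either direction (0%), with 415 at an unadjusted p under 0.05 and 0 by DESeq2. In HS cells 2 of 5192 genes were called with aged higher (0.0385%) and 5 with aged lower (0.0963%), while DESeq2 called 0. These were Defb1 and Trf, and Dnajb1, Nppc, Ctla2a, Atf3 and Upk3a, and most rested on positive cells of 1 mouse, such as Dnajb1, a heat shock cochaperone, at 1883 CPM in Young B against 285 and 375 CPM in Young A and C. As all values are sums over cells of a class, fewer cells that express a gene and less RNA in each cannot be told apart.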

How the data were processed

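Single-cell libraries (10x 3′ v2) of 7 mice were mapped by the authors to mm10 with Cell Ranger 2.0, per the labels, and deposited as raw UMI counts per gene and cell, after cells with too few or too many UMIs or genes, or a high mitochondrial share, had been taken out. Cell types are those of the authors' deposited annotation, and their deposited S and G2M score and phase served only as an alternative. The members and gene lists were chosen with earlier results of these data known. Counts were summed per mouse, type and class (at least 3 positive cells) and tested with edgeR 4.0.16 (R 4.3.3; quasi-likelihood, TMM factors, filterByExpr, mouse as block), called at an adjusted p (Benjamini-Hochberg) under 0.05 and a fold of at least 1.5. DESeq2 1.42.0, RLE factors, no filter, other choices of cells and leaving out each mouse were alternatives. Shares used scipy 1.17.1 with exact tests over mice, after thinning to 2000 UMIs (2700 as an alternative). Scrublet (scanpy 1.11.5) marked 73 cells (0.533%) as doublets, which were kept, 2 of them positive. Named are members of the lists, the 10 called genes with the largest rise and fall of the same sign in every mouse in each type, and the 5 called with the largest change in each direction in comparisons of age and type. Nothing says that libraries beyond 1 per mouse were made, so p-values measure the spread between these mice. The scripts were tested on simulated data. Intervals and limits cover counting error only. Promoter sequences and their positions came from RefSeq (GRCm38.p6).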

Additional observations from a re-analysis of the deposited data

Results flagged for a closer look

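These genes differed in their response between groups by the test of the difference itself (edgeR, adjusted p). With age, the log2 difference of positive against negative HS cells was lower in aged mice by the following values. It was -2.35 for Dnajb1 (adjusted p = 0.0016), with 1883 CPM in positive cells of Young B and 49.0 to 375 CPM in the other mice. It was -10.98 for Nppc, a natriuretic peptide gene (adjusted p = 0.0049), whose positive cells were at 0 in every aged mouse and at 150 CPM in Young C. That value depends on the prior count and is no bound. It was -5.72 for Ctla2a (adjusted p = 0.0058), with 326 CPM in negative cells of Aged B, -0.998 for the stress factor Atf3 (adjusted p = 0.0204) and -2.07 for the uroplakin gene Upk3a (adjusted p = 0.0317), with 493 CPM in positive cells of Young B and 1.69 without that mouse. It was higher in aged mice for Defb1 (1.73, adjusted p = 0.0060), a defensin, and for Trf, transferrin (2.39, adjusted p = 0.0060), with 1115 CPM in positive cells of Aged D.

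Between types, AV cells exceeded myoepithelial cells in the difference for Wfdc18 (2.93), Ccl2 (2.51) and Hspb1 (1.31). AV cells lay below HS cells for Emp1 (-1.08), which was lower in positive AV cells of 6 of 6 mice and higher in positive HS cells of 4 of 6. No mouse stood apart in the 28 sets of values of the aged mice (shares, and levels of genes called with age) tested for a lone extreme value, where chance would mark about 1 in 20.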

How the results depend on the processing

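Depth sets the main limit, as 1 UMI chose 86.2% of the cells. The cause of each change below was not tested unless the setting itself shows it. With the deposited phase S or G2M in place of the UMI rule, the age differences in percentage points were -11.6 (myoepithelial, adjusted p = 0.0429 in the exact permutation test), -4.33 (HS) and -12.1 (AV, adjusted exact p = 0.0429), AV minus HS was 25.6 and myoepithelial minus HS 28.6 (adjusted exact p = 0.0234 each). The phase shares are on another scale than the thinned shares, so the sizes of these differences cannot be set side by side. They ran from 20% of cells (HS, Aged B) to 80.9% (AV, Young A). The thinned shares ran from 0% (myoepithelial, Aged C) to 5.20% (myoepithelial, Young A). Top2a alone gave -0.0693 for age in HS, 0.696 for AV minus HS and 0.253 for AV minus myoepithelial. For AV minus HS, 2 or more UMIs gave 0.440. For myoepithelial minus HS, the raw share gave -2.03, thinning to 2700 UMIs -0.0899 and Mki67 alone -0.294. AV minus myoepithelial was 0.759 unthinned. On all UMIs, the log2 UMIs per cell were 0.0820 (HS) and 0.199 (AV).

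The letters A to C did not pair mice (same-letter correlations of -0.212 to 0.0863 over types). As a replicate block they gave -0.153 for age in HS and 1 gene higher with age in HS. With no replicate block (the mouse term dropped), all counts of positive against negative cells and of their differences by age or type were 0.

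Counts are given as higher and lower. DESeq2 gave 0 and 0 in myoepithelial, 1 and 0 in HS and 3 and 5 in AV cells, with age 10 and 3 in HS and 34 higher in AV, 0 and 0 for the age difference in HS, 1 higher for AV against myoepithelial and 0 lower for AV against HS. No filter on low counts gave 39 and 92, 13 and 28, and 41 and 96 in the 3 types, with age 51 and 12 (HS) and 118 and 55 (AV), 2 and 5 for the age difference in AV, 4 lower for AV against myoepithelial and 19 and 5 for AV against HS. At least 10 positive cells per mouse gave 13 higher in myoepithelial, 1 and 7 in HS, 1 and 2 for AV against myoepithelial and 2 higher for AV against HS. Negative cells matched in UMIs gave 0 and 0 in the 3 comparisons of positive with negative cells, with fewer genes tested. Cells chosen on 2000 UMIs gave 11 and 8, 1 and 9, and 1 and 16, with Hk2 at -0.0479. Cells with exactly 1 UMI (added after seeing the data) gave 0 and 11 in myoepithelial, 1 higher in HS and 2 higher in AV. RLE factors gave 10 lower in myoepithelial, 1 higher in HS, 1 higher for AV against myoepithelial and 3 lower for AV against HS. Without doublets 2 were lower in myoepithelial cells. With 2 or more UMIs AV gave 17 and 59, with Hk2 at -0.0164.

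Leaving out 1 mouse, age shares ranged from -1.72 (without Young C) to -0.337 (without Young A) in AV, -2.47 (without Young B) to -0.248 (without Young A) in myoepithelial and -0.284 to 0.477 in HS cells, AV minus HS from -0.337 to 0.206, myoepithelial minus HS from -0.491 to 0.287, AV minus myoepithelial from -0.216 to 0.155 and log2 UMIs in AV from -0.109 to 0.0502. Counts ranged from 0 to 6 and 0 to 8 (myoepithelial), 0 to 1 and 1 to 5 (HS), 2 to 9 and 8 to 20 (AV), with age 1 to 29 and 0 to 2 (HS) and 1 to 28 and 0 to 8 (AV). Age differences ranged from 0 to 7 and 3 to 8 (HS) and 0 to 1 and 0 to 1 (AV), AV against myoepithelial from 2 to 7 and 0 to 5, and AV against HS from 0 to 3 and 0 to 6. Named genes reversed without 1 mouse were Cks2 in myoepithelial cells (-0.00814 without Young A, up to 2.29), Upk3a (1.69 without Young B, down to -2.55) and Ccl2 (-0.314 without Young C, up to 3.05).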
